A study of Mus musculus with 4 samples.

Results

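The collagen chains were the genes whose name on the array starts with Col, followed by a number, the letter a and another number. This rule matched 42 of the 36161 gene names of the array. Of these, 41 encode collagen chains, and the other is *Col4a3bp*, which encodes a ceramide transfer protein and was left out of every count of chains. By the kind of structure their protein builds, the 41 chains fall into 11 fibrillar chains, 6 basement membrane chains, 2 multiplexins, 4 beaded filament chains, 9 chains of the FACIT class, which sit on the surface of fibrils, 3 short chains that form networks, 1 chain of the anchoring fibrils, 4 transmembrane chains and *Col28a1*. All 41 had a probe without an outlier flag of the scanner software.

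Liver RNA was compared between microsomic mice (M), which the methods define by a birth weight in the lowest part of the range for their sex, and control littermates (C) with a weight near the colony mean, in females (MF, CF) and in males (MM, CM). With 1 array per group nothing measures the spread between animals, so differences between single arrays are given with neither error nor p-value, and precision is limited by how few arrays there are. The only test is a limma fit over all 4 arrays, in which each sex stands as a replicate of the other. The sample labels give whole liver of strain C57BL/6J at embryonic day 20 for all 4 groups, while the methods of the study name newborn mice of C57BL/6 N, and no group carries a transgene or a treatment. The sources used here do not say whether an array holds RNA of 1 animal or a pool, and the methods name 3 replicate experiments per group. The arrays share a slide with separate columns for M and C, so slide column and condition cannot be told apart.

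Collagens are proteins of the extracellular matrix whose chains wind into a triple helix, a tight coil that only holds if glycine recurs at a fixed spacing along each chain. Fibrillar collagens of types I, III and V form the fibrils of the liver capsule and portal tracts, whereas type IV forms the sheet of basement membranes. In liver, stellate cells, portal fibroblasts and mesothelial cells are known for making fibrillar collagen, hepatocytes are the main source of type XVIII, and sinusoidal endothelium and stellate cells contribute type IV.

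The repeat that defines the family could be read in the probes themselves. Of the 64 probes for the 42 names, 4 carry a run of at least 4 unbroken triplets led by glycine. Probes of the FACIT chain *Col14a1*, the multiplexin *Col15a1* and the transmembrane chain *Col25a1* are shown because they hold the code of the triple helix, with the glycine codons of the reading frame in capitals.
Col14a1: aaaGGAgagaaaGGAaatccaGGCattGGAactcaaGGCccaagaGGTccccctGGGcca
Col15a1: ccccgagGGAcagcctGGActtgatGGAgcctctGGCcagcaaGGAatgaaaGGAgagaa
Col25a1: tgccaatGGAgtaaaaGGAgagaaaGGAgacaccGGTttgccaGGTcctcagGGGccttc
In the *Col14a1* probe the repeat is broken once, where a single codon stands between 2 glycines. The chosen probe of a gene, its brightest one without a flag, is of this kind for *Col15a1* alone, and for the other chains it lies in sequence with fewer such triplets.

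Of the 41 chains, 25 were well above background on all 4 arrays, 6 on 3 arrays, 2 on 2 arrays and 3 on 1 array. The other 5 (*Col6a6*, *Col8a1*, *Col10a1*, *Col22a1* and *Col28a1*) were not well above background on any array by the chosen probe. A second *Col6a6* probe was well above background on CM alone (-4.13). A type XXII probe outside the rule, named after its transcript, was well above background on MF (-3.30), CF (-3.93) and MM (-4.31). *Col6a6* is a type VI chain, *Col8a1* and *Col10a1* are short chains, the latter typical of growth cartilage, and *Col22a1* belongs to the FACIT class. No probe of a chain was saturated. Of the cartilage and bone markers, 6 of 13 were not well above background on any array either, and *Col2a1*, the main fibril collagen of cartilage, was well above background on CM alone.

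Levels are log2 values of the processed intensity after subtraction of each array's 75th percentile, written here as a scaled log2 signal, and a difference between 2 of them as a log2 difference. Such levels were compared between arrays for the same probe and not between probes. Between 56.1% (CM) and 65.3% (MM) of the spots were well above background, and the 75th percentile signal ran from 628 (CM) to 925 (MM). From probes printed at 10 spots, the SD of a difference between single spots of 2 arrays was 0.41 on the log2 scale both for MF vs CF and for MM vs CM, which covers spotting and scanning only. Hepatocyte markers (10 of 10) were well above background on all arrays. The summed linear signal of 10 heart muscle markers, in units of the 75th percentile, was 219 on CF against 2.63 on MF, 3.02 on MM and 6.75 on CM, and that of 10 intestinal markers was 257 on MF against 129 to 142 on the other arrays. The brightest intestinal marker, *Tff3*, had 7.40 on MF, 7.05 on CF, 6.67 on MM and 6.86 on CM. *Fabp2* had 5.95, 2.81, 4.98 and 2.59 in the same order. Of 9 intestinal markers compared in females, 7 were higher on MF by over 1.5-fold, against 19.9% of all genes. Heart and intestine contain collagen, and the part of these signals in the collagen values was not tested.

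**Figure D1:**
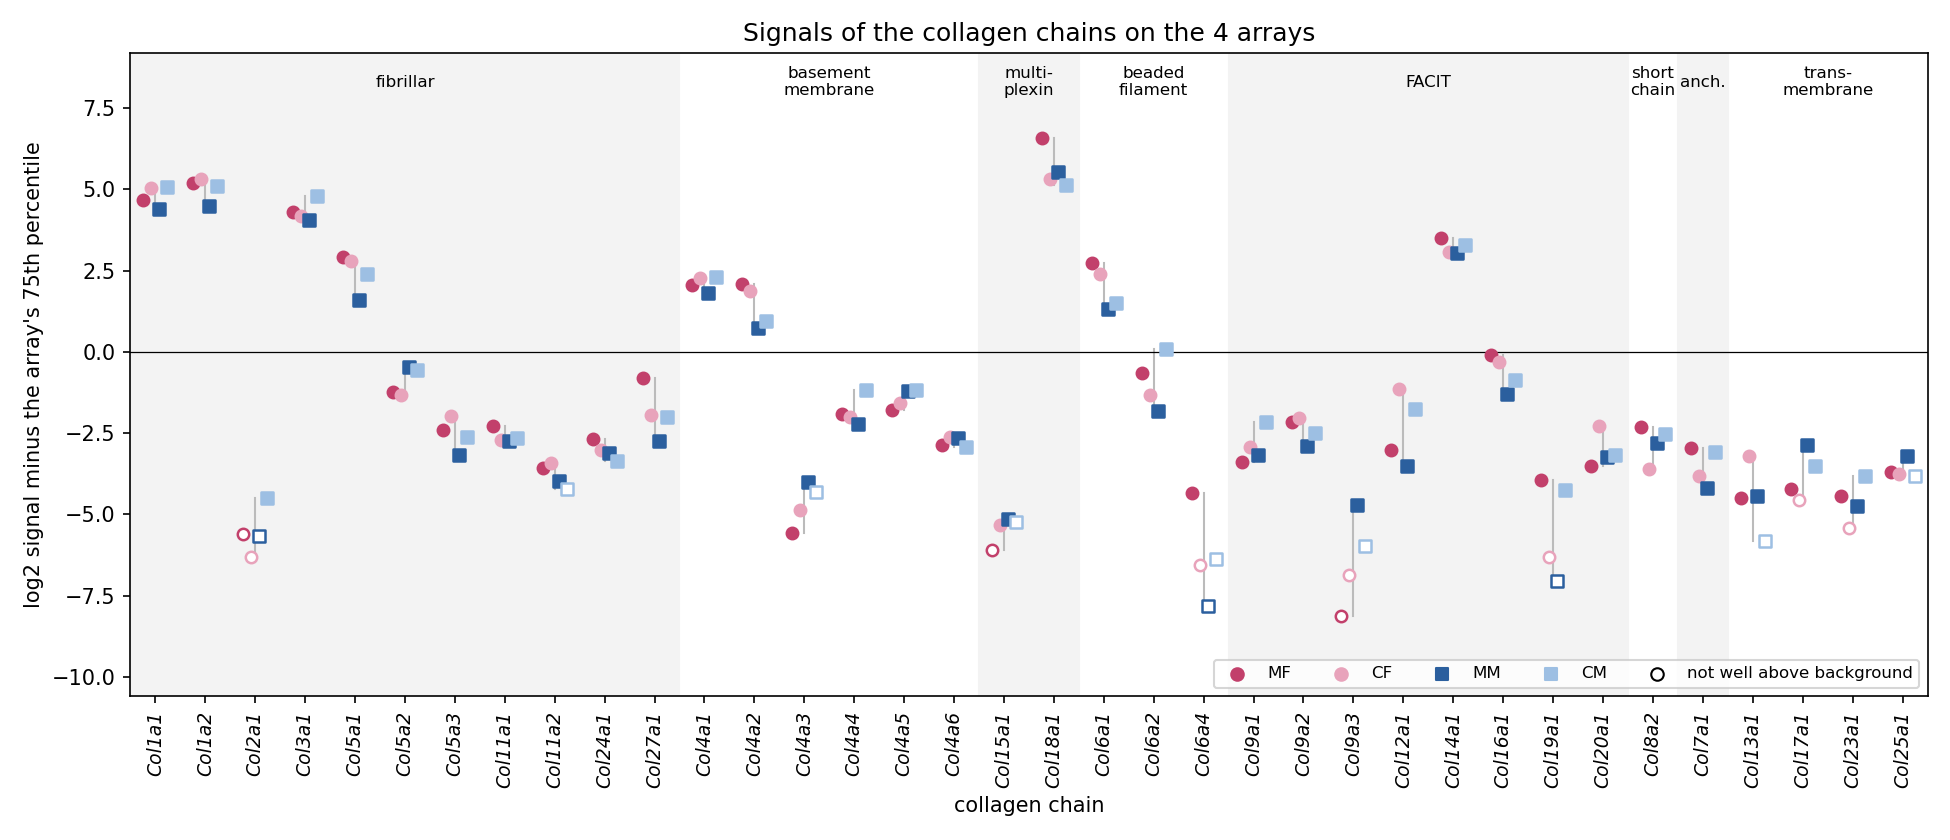
Scaled log2 signal (log2 signal minus the array's 75th percentile, y axis) of the 36 collagen chains well above background on at least 1 array, grouped by kind, with circles for females, squares for males, dark for microsomic and pale for control arrays, and open symbols where the probe was not well above background. Points are to be compared within a chain. As scaled here MM, the array with the highest 75th percentile, is the lowest point for 17 of the 25 chains measured on all 4 arrays. This order was not counted over all genes.

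As scaled here, the chains were lower on MM than on CM more often than genes in general, and in females they were divided. In MM vs CM, 35 chains could be compared, of which 13 were lower and 2 higher by over 1.5-fold, that is 37.1% and 5.71%, against 23.1% and 17.7% of the 26313 genes compared (40.8% either way). Among the 27 chains well above background on both male arrays, 22 were lower on MM, which is 81.5% against 54.5% of all genes, and their median log2 difference was -0.43 against -0.07 over all genes. In MF vs CF, 34 chains could be compared, of which 8 were higher and 5 lower, that is 23.5% and 14.7%, against 19.9% and 21.0% of the 25536 genes compared (40.9% either way). Of the 29 chains measured on both female arrays 13 were lower on MF, which is 44.8% against 57.1% of all genes, and their median was 0.09 against -0.11.

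The direction in males depended on the scaling between arrays. With arrays centred on their median, 8 of 35 chains were lower over 1.5-fold and 2 higher, against 17.5% and 27.4% of all genes. The median of the chains was then -0.19 where that of all genes was 0.17. The deposited values without scaling gave 4 of 35 lower and 9 higher, against 12.4% and 44.8% of all genes, which were thus mostly shifted up. The medians were 0.13 for the chains and 0.49 for all genes. The sign of chains such as *Col4a1* (0.07), *Col6a1* (0.40) and *Col14a1* (0.29) turned. The median of the chains in males lay below the median of all genes processed the same way, by -0.36 as reported. For 4 of the 12 alternatives this gap is the same by construction, since they shift all genes of an array alike or leave the genes measured on both arrays as they are. In the other 8 it kept its sign but not its size. It was smallest with normexp correction and quantile normalization, where the medians were -0.22 for the chains and -0.08 for all genes. In females the sign of the chains' median turned with normexp correction and quantile normalization together (-0.08) and with the trend over the array surface removed (-0.05). There too it lay above that of all genes (-0.12 and -0.13), but by less than as reported. These gaps are small beside the SD of 0.41 between single spots.

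**Figure D2:**
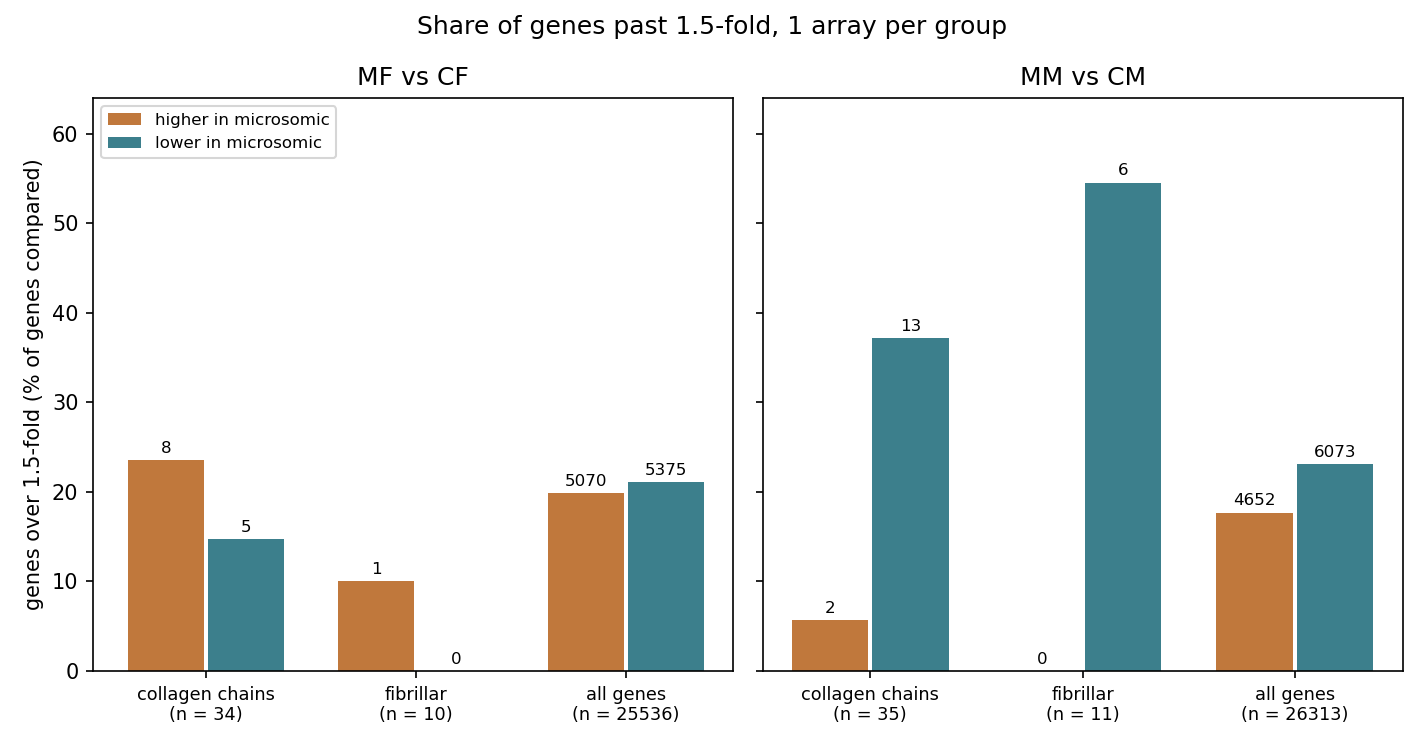
Percent of the genes compared that were over 1.5-fold higher (brown) or lower (teal) in the microsomic array, for all collagen chains, for the fibrillar chains among them and for all genes, with the number of genes on each bar and 1 array per group. As scaled here, in males 37.1% of the chains are lower against 23.1% of all genes, and in females no fibrillar chain is lower past 1.5-fold.

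The chains of types I and III collagen, the load-bearing fibrils of connective tissue, were lower on MM than on CM by over 1.5-fold as scaled here, and on the female arrays they differed by less. *Col1a1* (probe at chr11:94813115-94813174, mm9, plus strand) encodes the chain that is present in 2 copies in type I collagen, and its scaled log2 signals were 4.68 on MF, 5.04 on CF, 4.40 on MM and 5.07 on CM. *Col1a2*, its partner in type I collagen, had 5.20, 5.32, 4.50 and 5.10 in the same order. *Col3a1*, the chain of type III collagen that mixes with type I in soft tissue, had 4.31, 4.17, 4.05 and 4.80. For each of these 3 chains MM was the lowest array, by 1.59-fold, 1.52-fold and 1.68-fold below CM, while MF and CF differed by -0.36, -0.12 and 0.14 on the log2 scale, within the SD of 0.41 between single spots. The male differences of -0.67, -0.60 and -0.75 are each under 2 such SD. Without scaling they were -0.11, -0.04 and -0.19.

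Type V collagen, which starts fibrils and limits their width, did not move as a unit. *Col5a1* had 2.93 on MF, 2.80 on CF, 1.61 on MM and 2.39 on CM, so that both male arrays were below both female arrays and MM was 1.73-fold below CM. *Col5a2* ran the other way between the sexes, with -1.24, -1.33, -0.46 and -0.56, and MM and CM differed by 0.10 only. *Col5a3* had -2.40, -1.96, -3.17 and -2.61, lower on the microsomic array in both sexes by 1.36-fold and 1.47-fold. Of the 11 fibrillar chains compared in males, 6 were lower by over 1.5-fold (54.5%) and none higher, against 23.1% and 17.7% of all genes. Their median was -0.60 over 9. In females 1 of 10 was higher (10%) and none lower, against 19.9% and 21.0% of all genes, with a median of 0.11 over 10. Under the alternatives the female differences of *Col1a1* and *Col1a2* ran down to -0.76 and -0.82, past 1.5-fold, so the female count depended on the processing. The male count of 6 depended on the scaling, with 1 lower and none higher when arrays were centred on the median and 1 lower and 1 higher after normexp correction with quantile normalization. Over all genes 17.5% were lower and 27.4% higher in the former, and 22.6% and 24.4% in the latter. The 6 are *Col1a1*, *Col1a2*, *Col3a1*, *Col5a1*, *Col27a1* and *Col2a1*, the last as a bound of at least 2.24-fold. With the deposited values without scaling, the male differences of the first 5 ran from -0.23 to -0.04. The other fibrillar chains were *Col11a1* and *Col11a2*, of the thin fibrils of cartilage, and *Col24a1*, and their differences ran from -0.16 to 0.41 in females and from -0.09 to 0.26 in males.

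*Col27a1*, a fibrillar chain of developing cartilage, was the 1 fibrillar chain past 1.5-fold in females. Its scaled log2 signals were -0.79 on MF, -1.93 on CF, -2.75 on MM and -1.99 on CM. The microsomic array was thus the highest of all in females and the lowest in males, with differences of 1.13 and -0.75, the latter -0.01 after normexp correction with quantile normalization.

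The promoter of *Col1a2*, a chain that was lower on MM, is shown with the stretch of *Col6a2*, the chain with the largest difference among those measured on both male arrays, both from RefSeq on GRCm38.p6 and upstream of the annotated starts of transcription. *Col6a2* has 2 starts in the RefSeq table, and the stretch lies next to the outer one. Both strands were searched for GGGCGG (the core of the GC box), for the CCAAT box and for the box spelled TATAAA, and matches are in capitals. The *Col1a2* stretch is chr6:4505418-4505617 on the plus strand, and that of *Col6a2* is chr10:76623631-76623830 on the minus strand, each 200 bases.
Col1a2: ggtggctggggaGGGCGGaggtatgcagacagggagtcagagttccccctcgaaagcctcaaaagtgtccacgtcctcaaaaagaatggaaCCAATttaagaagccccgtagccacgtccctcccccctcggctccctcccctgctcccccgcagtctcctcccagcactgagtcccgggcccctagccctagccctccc
Col6a2: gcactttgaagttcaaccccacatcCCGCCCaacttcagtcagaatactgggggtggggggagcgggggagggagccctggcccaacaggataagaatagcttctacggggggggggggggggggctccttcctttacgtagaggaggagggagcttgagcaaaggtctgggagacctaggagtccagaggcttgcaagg
Of the 36 promoters of 33 chains in the RefSeq table (250 bases before to 50 after the start), 22 held GGGCGG, which is 61.1% against 35.7% of all 32851 promoters. CCAAT was in 36.1% against 37.4%, and TATAAA in 13.9% against 13.6%. Windows of a pair of chains can overlap, as below, and a match is a description of the letters and not a site.

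Of the 6 chains of type IV collagen, the network of basement membranes, 1 was lower by over 1.5-fold in females and 1 in males. That is 16.7% in each sex, against 21.0% and 23.1% of all genes. None was higher, against 19.9% and 17.7%. After normexp correction with quantile normalization 4 were lower and 1 higher in males, against 22.6% and 24.4% of all genes. *Col4a1* was printed at 10 spots, of which 8 were without a flag, and is the only chain with a spread on each array: 2.07 ± 0.07 on MF, 2.28 ± 0.35 on CF, 1.83 ± 0.24 on MM and 2.32 ± 0.27 on CM (SD, n = 8 spots of 1 RNA sample). The spots of MM (1.46 to 2.07) overlapped those of CM (1.97 to 2.76) at the edge, and those of MF (1.96 to 2.14) lay inside the range of CF (1.79 to 2.67). The differences of the means were -0.49 in males and -0.21 in females, and the spots do not measure the spread between animals. *Col4a2*, which joins *Col4a1* in the common type IV molecule, had 2.09, 1.87, 0.73 and 0.95, with both male arrays below both female arrays and little between M and C (0.23 and -0.22). The genes lie head to head, and their annotated starts are 21 bases apart, so that their promoter windows share 78 bases. The stretch between both starts is chr8:11312805-11312826 (GRCm38.p6), printed on the plus strand.
Col4a1 and Col4a2: agtgcgcGGGCGGcgtctccaa
The probes of *Col4a1* and *Col4a2* differed between CM and CF by 0.03 and -0.92.

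The other type IV chains belong to the networks of kidney, testis, muscle and skin. *Col4a4* was lower on MM than on CM by 2.08-fold, with -1.92 on MF, -2.01 on CF, -2.23 on MM and -1.18 on CM. A further probe of *Col4a4* gave -0.41 for the same comparison, on dimmer signals. *Col4a3*, its neighbour and partner, had -5.56, -4.85, -3.99 and -4.31, of which the CM value was not well above background, and was 1.63-fold lower on MF than on CF. *Col4a5* (-1.77, -1.57, -1.20 and -1.17) differed by -0.20 and -0.03 only. *Col4a6* (-2.88, -2.61, -2.66 and -2.92) differed by -0.27 and 0.26, and another probe of this gene turned the male sign (-0.71). The chosen probes of both *Col4a5* and *Col4a6* hold 4 or more windows of C and T, a window being 5 successive pyrimidines of which 3 or more are C.

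Type XVIII collagen, a basement membrane collagen abundant in liver whose end yields endostatin, was higher on MF than on CF. *Col18a1* (chr10:76515790-76515849, mm9, minus strand) had a scaled log2 signal of 6.59 on MF, 5.33 on CF, 5.54 on MM and 5.15 on CM. MF stood above the other 3 arrays, 2.40-fold above CF, and the male difference was 0.40. The size depended on the probe and on the processing. The second probe gave 0.51 and -0.14, quantile normalization gave 0.61 in females and 0.37 in males, and normexp correction together with quantile normalization gave 0.24 and 1.24. The other multiplexin, *Col15a1*, was near the background, with -6.08 on MF, -5.34 on CF, -5.15 on MM and -5.23 on CM. This chosen probe was well above background on CF and MM alone, which left a bound of at least 1.56-fold lower on MF. Another *Col15a1* probe went the other way, well above background on MF alone (-4.94, against -7.27 on CF).

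Type VI collagen builds beaded filaments around cells, and its chains, which assemble together, did not show the same pattern. *Col6a1* had 2.75 on MF, 2.40 on CF, 1.34 on MM and 1.5 on CM, so that both male arrays were below both female arrays. *Col6a2* (chr10:76058931-76058990, mm9, minus strand) had -0.65, -1.33, -1.81 and 0.10. MM was 3.76-fold below CM, the largest difference among the 27 chains measured on both male arrays, and MF was 1.61-fold above CF. A probe named after another transcript of *Col6a2* was well above background on MF (-4.19) and MM (-5.46) and not on CF or CM, so that it did not show the low male value. *Col6a3* was covered only by a probe under the name of its transcript, outside the rule, with 1.65, 1.49, 0.82 and 0.92 and no difference past 1.5-fold. *Col6a4* was well above background on MF alone (-4.34), at least 2.21-fold over CF.

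Among the FACIT chains, *Col12a1* was the 1 chain of the 33 compared in both sexes that was lower by over 1.5-fold on both microsomic arrays. This share of 3.03% was no higher than the 3.80% of all genes compared in both sexes. *Col12a1* encodes type XII collagen, which ties type I fibrils to their surroundings in tendon, fascia and other dense connective tissue. Its probe (chr9:79446895-79446954, mm9, minus strand) had a scaled log2 signal of -3.01 on MF, -1.16 on CF, -3.52 on MM and -1.76 on CM. Both microsomic arrays were below both controls, by 3.63-fold in females and 3.38-fold in males, and the differences of -1.86 and -1.76 exceeded 4 SD of single spots. Under the alternatives they ran from -1.87 to -1.44 in females and from -1.92 to -0.94 in males. A probe named after another transcript of the gene was not well above background on any array. Heart muscle markers were lower on the same arrays, 9 of 10 compared in females and 6 of 9 in males by over 1.5-fold, and their part in the *Col12a1* difference was not tested.

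In the limma fit of condition and sex to the 4 arrays, *Col12a1* had a log2 difference of -1.81 with an SE of 0.41, an unadjusted p of 0.00278 and an adjusted p (Benjamini-Hochberg over 19298 genes) of 0.995. No gene (0.00%) and no chain passed an adjusted p of 0.05 in this fit, which has 1 residual degree of freedom, and 851 genes (4.41%) had an unadjusted p under 0.05. *Col12a1* was the 1 of 25 chains among these. It was also the 1 chain that met the criterion stated by the study, 1.5-fold together with a limma p under 0.01, which 163 genes (0.845%) met. The study does not say whether this p is adjusted, and it was read here as unadjusted. Across the other fits its limma p ran from 0.00230 to 0.0389 before adjustment.

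**Figure D3:**
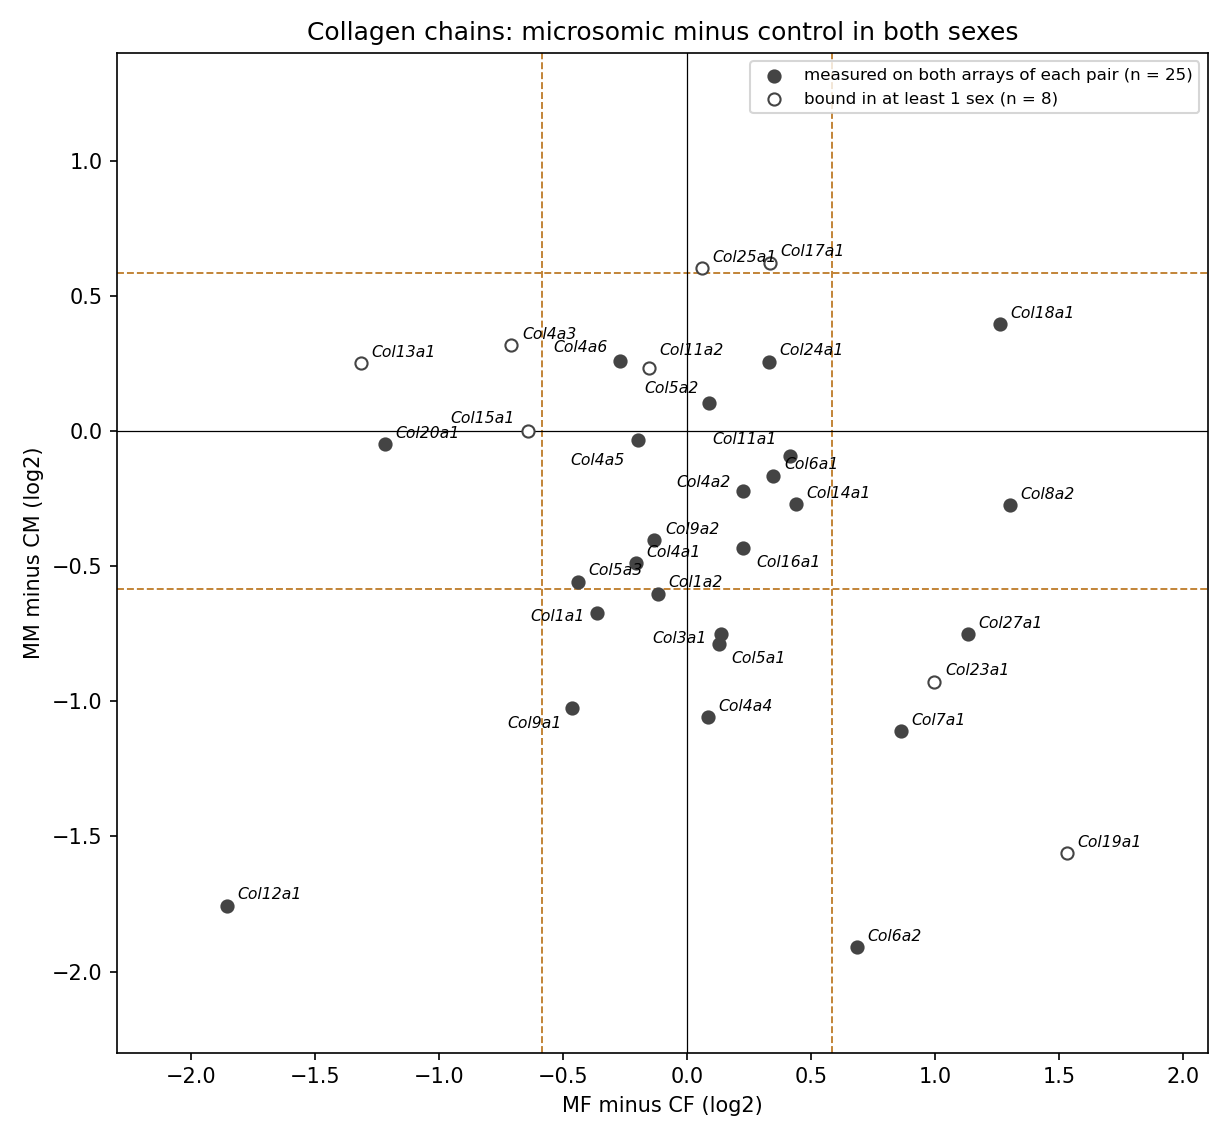
Log2 difference MM minus CM (y axis) against MF minus CF (x axis) for the 33 collagen chains compared in both sexes, 1 point a chain, with dashed lines at 1.5-fold. Open points are bounds in at least 1 sex. *Col12a1* is the only point beyond the lines at the lower left, 5 chains lie beyond them at the lower right, and none at the upper right or upper left.

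Apart from *Col19a1*, given below as bounds, the other FACIT chains were spread around smaller values. *Col14a1*, which encodes the fibril-associated type XIV collagen, had 3.52, 3.08, 3.03 and 3.30 on MF, CF, MM and CM, so that the microsomic array was the highest in females and the lowest in males, by 0.44 and -0.27. Its second probe, shown above, gave -0.16 and -0.64. *Col20a1* was lower on MF (-3.50) than on CF (-2.28), by 2.33-fold, and MM (-3.23) and CM (-3.18) differed little. The second *Col20a1* probe gave -0.38 in females, under 1.5-fold. *Col9a1*, a chain of the type IX collagen of cartilage, was lower on MM (-3.18) than on CM (-2.16), by 2.03-fold. A further *Col9a1* probe, well above background on all 4 arrays, gave -0.05 for this comparison. *Col9a2*, another type IX chain, and *Col16a1* were below 1.5-fold in both sexes, at -0.13 and -0.40 and at 0.23 and -0.43, and *Col9a3* was well above background on MM alone. Over the class, 6 of 6 chains measured on both male arrays were lower on MM, against 54.5% of all genes. Their median was -0.42. By over 1.5-fold 3 of 8 compared were lower (37.5%), against 23.1% of all genes. With arrays centred on the median, the male median of the class was -0.18 where that of all genes was 0.17. Under the alternatives the male differences of *Col14a1* and *Col20a1* ran up to 0.29 and 0.51. In females 2 of 7 were lower and 1 higher by over 1.5-fold, against 21.0% and 19.9% of all genes, with a median of -0.30 over 6.

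No chain was higher by over 1.5-fold on both microsomic arrays, against 3.18% of all genes. The opposite pairing, higher on MF than CF and lower on MM than CM, held for 5 of 33 chains (15.2%), against 5.81% of all genes, and the reverse of it for none, against 4.04%. Besides *Col6a2* and *Col27a1* these were *Col7a1*, *Col19a1* and *Col23a1*, of which the last 2, like *Col9a1* and *Col25a1* elsewhere, were named after their values were seen. *Col7a1*, the anchoring fibril of the skin, had -2.95 on MF, -3.82 on CF, -4.18 on MM and -3.07 on CM, and differed by 0.86 and -1.11, or by 0.28 in females with the trend over the array surface removed and by -0.55 in males without scaling. *Col19a1*, a rare FACIT chain, was well above background on MF (-3.95) and CM (-4.26) only, which gives bounds of at least 2.89-fold and 2.95-fold. With the mean over its probes the log2 differences of *Col19a1* were 0.00 and -0.38. *Col23a1*, a transmembrane chain, was higher on MF by a log2 bound of 0.998 and 1.90-fold lower on MM, and after normexp correction with quantile normalization its differences were 0.43 and -0.48. That processing also took *Col6a2* in females to 0.58, just under 1.5-fold, so that each of the 5 fell under the threshold in at least 1 sex under some alternative. Whether the effect of microsomia on these 5 chains differs between the sexes was not tested, as each sex holds 1 array per condition.

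Among the remaining chains, the short chain *Col8a2*, a component of vessel walls and of the cornea, had -2.31, -3.62, -2.79 and -2.52 on MF, CF, MM and CM, and CF was the lowest. Its 2.47-fold difference in females was not seen by its second probe (-0.27) and became -0.20 with normexp correction and quantile normalization. *Col13a1*, a transmembrane chain of cell adhesion sites, was 2.49-fold lower on MF (-4.51) than on CF (-3.19), while in males it was well above background on MM alone (-4.43). *Col17a1*, which anchors epithelial cells in hemidesmosomes, was 1.54-fold higher on MM (-2.88) than on CM (-3.50), and with *Col25a1* (a bound of at least 1.52-fold) it makes up the 2 chains that were higher in males. Another *Col25a1* probe gave 0.90 for MM minus CM. The *Col25a1* probe shown above went the other way, well above background on CM (-2.37) and not on MM (-4.54).

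Between the sexes, 18 of 34 chains differed by over 1.5-fold in CM vs CF, against 46.3% of all genes, and 18 of 35 in MM vs MF, against 49.4%. In CM vs CF 11 were higher and 7 lower in males, against 26.6% and 19.7% of all genes, and in MM vs MF 5 were higher and 13 lower, against 28.9% and 20.5%. In the sex term of the limma fit no gene (0.00%) passed an adjusted p of 0.05 and 1804 (9.35%) had an unadjusted p under 0.05. Of the chains these were *Col6a1*, at -1.16 with an SE of 0.42, and *Col4a2*, at -1.14 with an SE of 0.42, both lower in males with a limma adjusted p of 0.501. No chain passed the threshold of the study in this term, which 2.50% of genes did.

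Of the 7 lists of genes that fold, process, bind, sense, break down or induce collagen, all but the breakdown list held more lower than higher genes in males. The shares over all genes, against which the counts are to be read, were 19.9% higher and 21.0% lower in females and 17.7% and 23.1% in males. The male shares moved with the scaling. They were 27.4% higher and 17.5% lower with arrays centred on the median, and 44.8% and 12.4% without scaling. With normexp correction and quantile normalization they were 24.4% and 22.6%. With arrays centred on the median the male counts of higher and lower genes were even for folding (5 and 5), receptors (2 and 2) and TGF beta signalling (4 and 4). They were not for fibril partners (3 and 5), basement membrane partners (2 and 4) and breakdown (5 and 2). Without scaling every list held more higher than lower genes in males, 9 and 4 for folding, 3 and 1 for processing, 7 and 3 for fibril partners, 4 and 0 for basement membrane partners, 4 and 2 for receptors, 6 and 1 for breakdown and 5 and 2 for TGF beta signalling, and with normexp correction and quantile normalization the last had 5 and 3. Of 22 folding and modification genes, 4 were higher and 2 lower by over 1.5-fold in MF vs CF, and of 21 in MM vs CM 1 was higher and 6 lower, which is 18.2% higher in females and 28.6% lower in males. *Serpinh1*, the chaperone specific to procollagen, differed by 0.49 and -0.23, and *P4ha1* and *P4hb*, subunits of prolyl 4-hydroxylase, by 0.79 and 0.47 and by 1.31 and 0.49. The other alpha subunits, *P4ha2* (0.54 and -1.08) and *P4ha3* (-0.10 and -1.27), were over 2-fold lower in males, and were named after their values were seen. *Sec23a*, a coat protein needed to export procollagen from the endoplasmic reticulum, was lower in both sexes, by 1.71-fold and 2.21-fold. Of 12 genes of processing and crosslinking compared, 3 were higher and 1 lower in females and 1 higher and 4 lower in males. *Lox*, which crosslinks fibrils, differed by -0.16 and -0.51, and *Bmp1*, which removes the C-terminal propeptide, by 3.01 and -1.57 on a probe that holds 4 such pyrimidine windows.

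Of 19 fibril partners, 5 were higher and 3 lower in females and 1 higher and 6 lower in males. *Dcn* and *Lum*, proteoglycans that coat fibrils, differed by 0.40 and -0.12 and by -0.24 and -0.35. *Fn1* differed by -0.48 and 0.06, and *Sparc*, a collagen-binding glycoprotein, by 0.90 and -0.14. *Aspn*, a relative of decorin, was lower on both microsomic arrays as *Col12a1* was, by -1.48 and -1.37. Of the basement membrane partners, 3 of 15 were lower and none higher in females and 4 of 16 lower and 2 higher in males, with the laminin chain *Lamc1* at 0.50 and 0.23 and *Lama4*, a vessel laminin, at -0.84 and -0.86.

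Of 10 collagen receptors, 2 were lower and none higher in females and 4 lower and 1 higher in males. The receptor kinase *Ddr2* differed by -0.36 and -0.70, and the integrin *Itga2* by at least -2.13 (MF not well above background) and by -1.17. Breakdown genes were divided, with 3 higher and 2 lower of 11 in females and 4 and 4 of 12 in males. The gelatinase *Mmp2* differed by 0.48 and 0.71, the inhibitor *Timp3* by -0.66 and -0.55, the protease *Ctsk* by -0.64 and -0.62, and *Reck*, a membrane inhibitor of matrix proteases, by 1.11 and 1.76. Of 17 genes of TGF beta signalling, which drives collagen synthesis, 5 were higher and 1 lower in females and 2 higher and 6 lower in males. *Tgfb1* differed by 0.65 and 0.01, and *Ctgf*, a classical target of the pathway, was lower on both microsomic arrays by -1.02 and -1.03.

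Markers of stellate cells and fibroblasts, which make collagen, had a median below 0 in males as the chains did. Of 15 stellate cell and fibroblast markers, 13 were well above background on all 4 arrays and *Rgs5* on none. In MM vs CM 11 of the 13 were lower, 4 by over 1.5-fold and none higher, with a median of -0.45. The 4 are 30.8%, against 23.1% of all genes. With arrays centred on the median 2 were lower and 1 higher, against 17.5% and 27.4% of all genes. In MF vs CF 4 were higher and 2 lower, with a median of -0.25. Their summed linear signal was 24.7 on MF, 19.9 on CF, 10.8 on MM and 15.9 on CM, so that MM was the lowest. Most of the gap between the sexes lay in *Acta2* and *Tagln*, and without this pair the sums were 8.94, 9.99, 7.81 and 10.03. Without scaling 2 of these markers were higher and 1 lower in males, against 44.8% and 12.4% of all genes, with a median of 0.11 where that of all genes was 0.49. The brightest of them were *Acta2* (3.27, 2.59, 0.67 and 1.21 on MF, CF, MM and CM), *Tagln* (2.61, 1.98, 0.53 and 1.85) and *Lhx2* (0.80, 1.31, 1.12 and 1.76). In whole liver RNA, fewer cells of a type and less RNA per cell cannot be told apart, and the part of these cells in the collagen values was not tested.

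Markers of other cell types differed as well. Of 10 hepatocyte markers, 6 were lower and 2 higher by over 1.5-fold in MM vs CM, with a median of -0.64, whereas after quantile normalization none was lower and the median was -0.02. The 11 endothelium markers had medians of -0.28 in females and 0.07 in males, none past 1.5-fold in males. The summed signal of the 7 mesothelium markers ran from 4.23 (CF) to 5.72 (MF), with 4.60 on MM and 4.69 on CM. That of the skin markers was 3.77 on MM and 6.07 on CM, and that of the skeletal muscle markers 0.931 on MF and 6.31 on CF. These sums rest on few genes. Of 6 skin markers compared in males, 2 were lower and 1 higher by over 1.5-fold, against 23.1% and 17.7% of all genes. In males *Trp63*, the brightest of them, and *Krt14* differed by -0.85 and -0.97, and *Krt10* and *Lor* by -0.11 each. *Dsg3* went the other way, well above background on MM (-2.42) and not on CM, a bound of at least 4.78-fold higher. In females *Ckm* and *Myh8* differed by -6.81 and -4.30, and *Acta1*, *Tnnt3* and *Tnni2* by -0.40, -0.36 and -0.44.

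**Figure D4:**
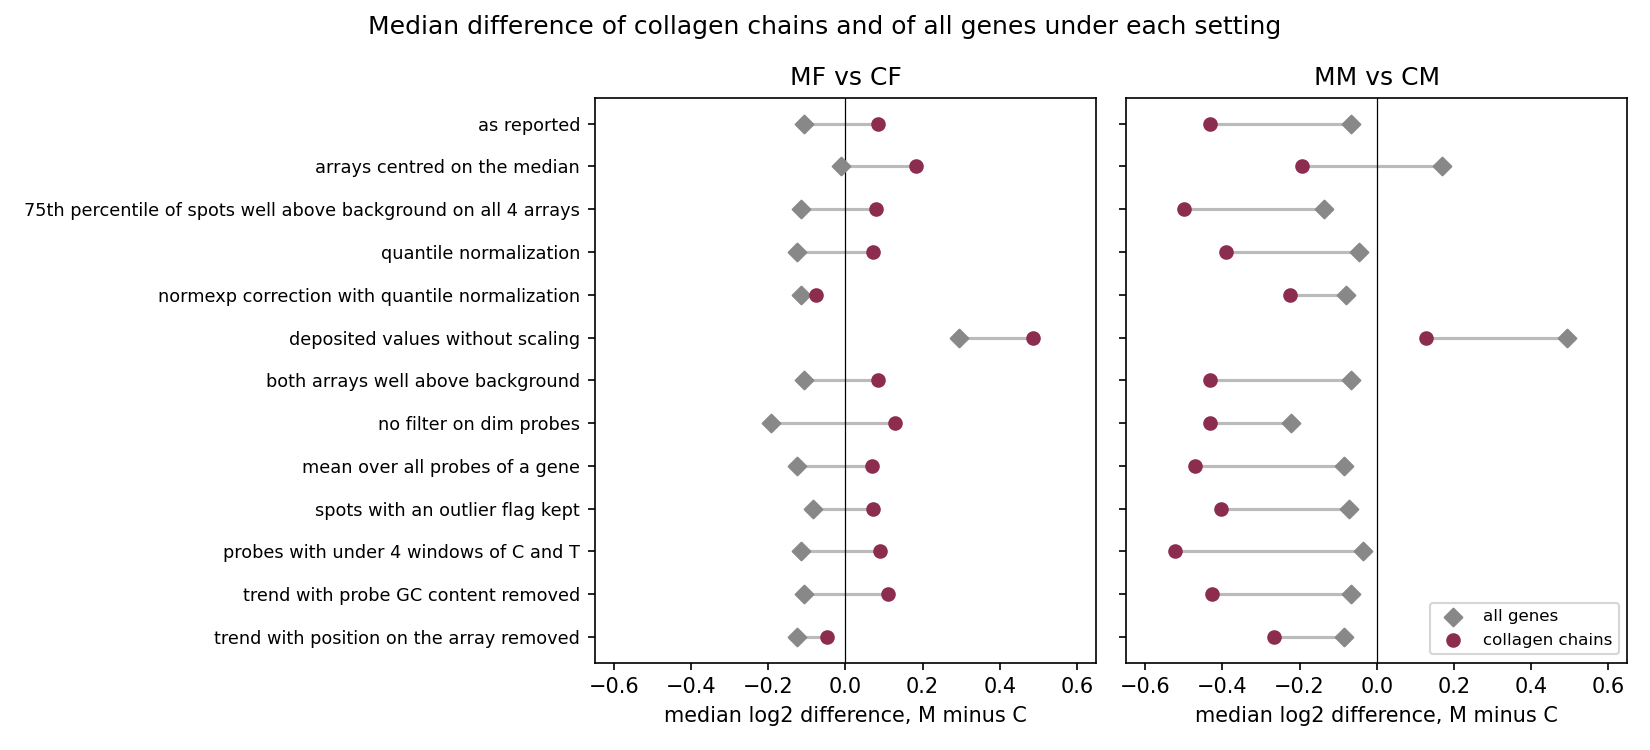
Median log2 difference, M minus C (x axis), of the collagen chains (circles) and of all genes (diamonds) measured on both arrays of a pair, as reported and under each of 12 alternatives that leave the fold threshold as it is (y axis). In males the circle lies left of the diamond and in females right of it. The gap is the same by construction in 4 of the 12 alternatives and free to change in 8. In both sexes it is smallest with normexp correction and quantile normalization.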

How the data were processed

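Liver RNA, labelled with Cy3, was hybridized to 1-colour Agilent arrays of 60-base probes, 1 array for each of 4 groups. Scans were read by the authors with Feature Extraction (Agilent, 10.7.3.1 per the file headers). The deposited values are linear intensities, background-subtracted and detrended by the software and not normalized between arrays. The deposited series table equals the processed signal in all 62976 spots. Here log2 intensities were shifted so that the non-control spots of every array had their 75th percentile at 0. A spot flagged as an outlier anywhere was dropped throughout (1754 of 59305). The flag for uneven spots was most frequent on MF, with 916 spots against 182 on CF, 130 on MM and 136 on CM. After averaging the spots of each probe, the brightest unflagged probe stood for its gene. Genes entered a comparison if at least 1 of its arrays had them well above background. On the other array the difference was then a bound, taken against the higher of the lowest signal well above background and the signal of the probe itself. No test was made between 2 arrays. limma (3.58.1) was fitted in R (4.3.3) with condition and sex to the 19298 genes well above background on each array, which leaves 1 residual degree of freedom. P-values were adjusted by Benjamini-Hochberg, and the fit was tested on simulated data. P-values then measure only the spread between these arrays.

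The members, the lists, the named genes and the alternatives were chosen with earlier results of these data known. Named were the chains of types I, III, IV, V, VI, XIV, XV and XVIII, the 3 largest differences each way in each sex among chains measured on both arrays, chains past 1.5-fold the same way in both sexes, and fixed partners. To these came up to 3 genes of each list that passed 1.5-fold the same way in both sexes, and the brightest markers. Positions of probes come from the annotation deposited with the arrays (mm9). Of the 42 names, 41 matched the RefSeq table of GRCm38.p6. Exons and untranslated regions on mm9 were not used here.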

Additional observations from a re-analysis of the deposited data

Results flagged for a closer look

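Chains that moved in opposite directions in the sexes past 1.5-fold drew attention because the arrays of one sex differed one way and those of the other sex the opposite way. These were *Col6a2* (log2 difference of 0.68 for MF minus CF and -1.91 for MM minus CM), *Col7a1* (0.86 and -1.11), *Col19a1* (bounds of 1.53 and -1.56), *Col23a1* (a bound of 0.998, and -0.93) and *Col27a1* (1.13 and -0.75). The difference between the sexes was not tested, since each sex holds 1 array per condition.

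A pair of probes was left out for an outlier flag and carried a signal of its own. A *Col16a1* probe with a flag on MF had a log2 difference of at least 2.38 for MF minus CF, where the chosen probe of the gene gave 0.23. A *Col23a1* probe with such a flag gave 1.87 for MM minus CM, where the chosen probe gave -0.93.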

How the results depend on the processing

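The values below are counts of chains over 1.5-fold unless stated, and each alternative changed 1 choice, except that normexp correction always came with quantile normalization. In males 13 chains were lower as reported, and 8 with arrays centred on the median, 4 with the deposited values without scaling and 7 past 2-fold. The 2 chains that were higher in males became 0 with the 75th percentile of spots well above background on all arrays and past 2-fold, 1 where both arrays had to be well above background, with the mean over probes and with the GC or the position trend removed, 4 with quantile normalization, with normexp correction and with no filter, and 9 without scaling. In females the 8 that were higher became 4 with normexp correction and with the mean over probes, 5 where both arrays had to be well above background and past 2-fold, and 15 without scaling, and the 5 that were lower became 3 without scaling and past 2-fold. The shares over all genes moved too. Without scaling 44.8% of all genes were higher and 12.4% lower in males, and 35.8% and 9.16% in females. Past 2-fold the shares were 8.04% and 14.4% in males and 10.8% and 8.91% in females. With arrays centred on the median 17.5% of all genes were lower in males. The median of the chains in males moved from -0.43 to 0.13 without scaling, where that of all genes moved from -0.07 to 0.49. Among single chains, the female difference of *Col8a2* turned to -0.20 with normexp correction and that of *Col15a1* to 0.15 with the mean over probes, and *Col23a1* turned to -0.0700 in females and 1.87 in males when spots with a flag were kept. Over all genes, the limma count of 0 became 9 for M vs C without scaling, and for the sexes 170 with arrays centred on the median, 172 without scaling, 58 with normexp correction and 62 with an intensity trend, none of them a chain. The limma count of 0 chains became 1 (*Col12a1*) at the threshold of the study. Of the other single-chain values, 547 stayed within the spread of spots and 71 moved by more, with their direction kept where the value as reported passed 1.5-fold. Values reported under 1.5-fold could turn. The male difference of *Col4a6*, 0.26 as reported, ran from -0.71 to 0.82.

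No paired analysis was possible because each group holds 1 array. Leaving out an array would leave a group empty. The causes were not tested. Signal over background limits the 16 chains that were not well above background on every array, for which a difference is a bound or is missing.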
